A study of Sus scrofa domesticus with 4 samples.

Results

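The genes described here run from the insulin receptor substrate IRS1 through the kinase AKT1 and the transcription factors FOXO1 and FOXO3 to the ubiquitin ligase genes FBXO32 and TRIM63. A probe belonged to them when the RefSeq accession printed for it in the scanner files was an accession of one of these 6 pig genes. This gave 6 probes of 43603 on the array, for 4 of the 6 genes: 2 for IRS1, 1 for AKT1, 1 for FOXO3 and 2 for FBXO32. No probe could be matched to FOXO1 or TRIM63 through the accessions used, so these 2 genes are not analysed here. The genes were chosen by their treated-over-untreated log2 ratios and untreated signals on these same arrays. Those values are therefore a description here, and the fit is quoted only to give their error.

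Myometrium, the smooth muscle wall of the uterus, was taken from 4 mature Large White x Polish Landrace gilts, 7 to 8 months old and on days 15 to 16 of gestation. Slices about 3 mm thick were kept for 2 h in culture medium and then for 24 h either with adiponectin at 10 µg/ml or with nothing added, and cultures were made in duplicate. Each of 4 Agilent 2-colour arrays held 1 treated and 1 untreated RNA, and the dye fields of the labels swap the dyes: the adiponectin sample was Cy5-labelled on arrays 1 and 3 and Cy3-labelled on arrays 2 and 4. The labels tie no array to a gilt, so the spread between arrays may be partly technical. Explants hold all the cell types of the tissue slice and have lost their blood supply, and in such a sample fewer cells of a type and less RNA per cell cannot be told apart.

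Insulin and insulin-like growth factors act through receptors that phosphorylate IRS proteins, which recruit PI3-kinase and thereby activate AKT. Active AKT phosphorylates FOXO factors and keeps them out of the nucleus. In wasting striated muscle, nuclear FOXO factors raise transcription of FBXO32 (atrogin-1) and TRIM63 (MuRF1), the so-called atrogenes, whose products mark muscle proteins for the proteasome. Adiponectin, a hormone of fat tissue, is known for sensitising tissues to insulin. Most of this control lies in protein phosphorylation and location, which an RNA array does not measure.

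No change with adiponectin was called for any of the 4 measured genes in the limma fit. FBXO32 lay lower in the treated RNA on all 4 arrays by its brighter probe, with a mean log2 ratio of -0.30 ± 0.21 (SD, n = 4 arrays), and its other probe gave a far lower value on array 1 alone. AKT1 spanned from 1.18 lower to 0.55 higher on the log2 scale between arrays. FOXO3 lay lower on array 1 and higher on the other 3. IRS1 stayed within 0.24 of 0 on every array but was close to background on arrays 3 and 4. Of the 22129 probes tested across the array, limma called 0 higher and 0 lower (0.00% in each direction), 0 of the 5 tested probes of these genes among them, and the smallest adjusted p of any probe was 0.856. At an unadjusted p under 0.05, the same fit counted 838 probes higher (3.79%) and 425 lower (1.92%). The median half-width of the 95% interval over tested probes was 0.39 in log2 units.

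**Figure D1:**
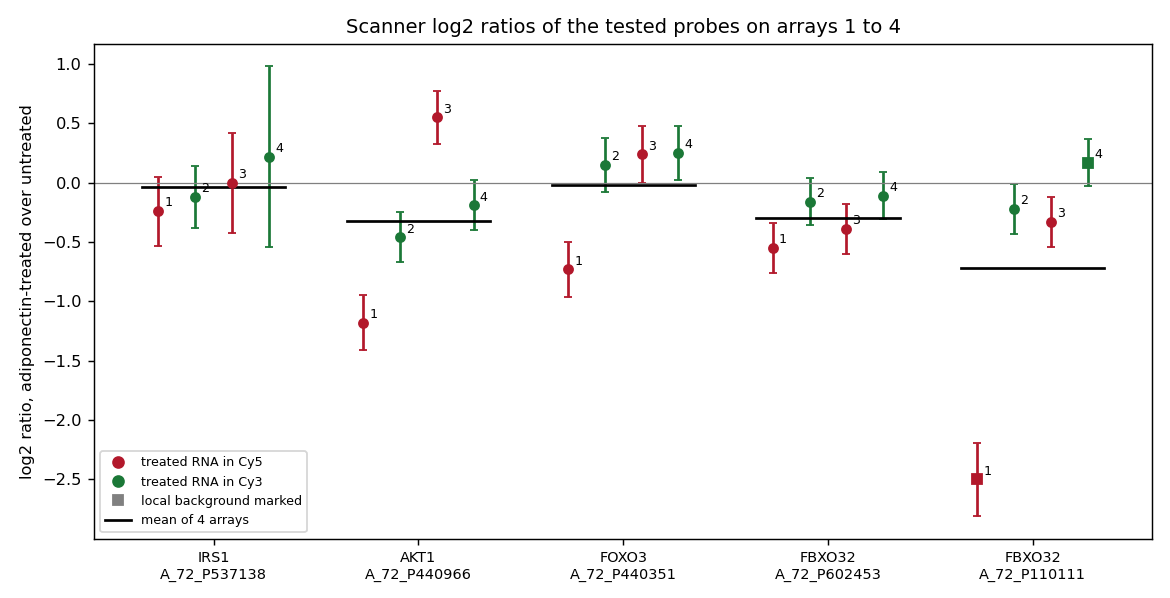
Scanner log2 ratio of treated over untreated RNA for the 5 tested probes (x axis: gene and probe; y axis: log2 ratio), 1 point per array numbered 1 to 4 and coloured by the dye of the treated RNA. Bars are the scanner software's error of the single spot, black lines the mean of 4 arrays, and squares mark spots whose local background was marked as an outlier. AKT1 at -1.18 and FOXO3 at -0.73 on array 1 stand below their other arrays, and the second FBXO32 probe reaches -2.50 on array 1.

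IRS1, the docking protein at the receptor, was measured well above background by probe A_72_P537138 on 3 of 4 arrays in treated and 2 of 4 in untreated RNA. Its processed signal, which is background-subtracted and dye-normalised, was 74.3, 90.5, 47.2 and 19.6 in untreated RNA on arrays 1 to 4. In treated RNA it was 62.9, 83.3, 47.1 and 22.8. The 2 conditions followed each other from array to array, and their ranges overlapped. The log2 ratios were -0.24, -0.12, 0.00 and 0.22, with single-spot errors between 0.26 and 0.76, so no array differed from 0 by more than the error of its spot. The mean was -0.04, with a moderated SE of 0.14 and an interval from -0.39 to 0.32, a fold between 0.763 and 1.25. It was 0.02 without array 1 and 0.05 without array 2.

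The second IRS1 probe, A_72_P443378, was not well above background in either condition on any array and was not tested. Its processed signals lay between 5.90 and 18.6. The treated-over-untreated log2 ratio was 0.69 and 1.19 on arrays 1 and 3 and -0.97 and -0.94 on arrays 2 and 4. The Cy5 channel was thus the brighter on all 4 arrays, whichever condition it held. No fold is given for it.

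AKT1 encodes the kinase that relays the signal from PI3-kinase to FOXO factors and to protein synthesis. Probe A_72_P440966 was well above background in both conditions on all 4 arrays. Its processed signal was 647, 342, 247 and 273 in untreated RNA on arrays 1 to 4 and 285, 248, 362 and 239.6 in treated RNA. The untreated signal of array 1 stood apart at 2.27-fold the mean of the other 3, while the treated signal was within the range of the others, and the ranges of the conditions overlapped. Over all tested probes, the median signal of array 1 was the highest in both conditions. It was 377 against 266 to 333 elsewhere in untreated RNA, and 379.9 against 266 to 336 in treated RNA.

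The log2 ratios of AKT1 were -1.18, -0.46, 0.55 and -0.19, each with a single-spot error between 0.21 and 0.23. Of the tested probes, 92.1% had a narrower range over the 4 arrays. On array 1, 0.868% of the tested probes lay at or below the AKT1 value, and on array 3, 90.0% did. The mean was -0.32 with a moderated SE of 0.29 and an interval from -1.04 to 0.40, a fold between 0.486 and 1.32. It moved to 0.11 without array 1, to -0.76 without array 3 and to -0.18 when intensity was corrected with normexp and normalised with loess.

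The median log2 ratio of the smooth muscle markers, like the AKT1 ratio, was lowest on array 1 and highest on array 3. Of the 14 listed markers 8 had a tested probe, and their median log2 ratio was -0.69, -0.12, 0.72 and -0.20 on arrays 1 to 4. ACTA2, the smooth muscle actin, was at -0.91 on array 1 and 1.58 on array 3, and MYLK, the myosin light chain kinase, at -0.73 and 0.95. Not every marker followed the median. TPM2 was highest on array 4 at 0.26, MYL9 was lowest there at -0.78, and CNN1 was at -0.33 on both array 1 and array 2. The summed signal of the 8 genes lay between 18.11 and 19.16 on the log2 scale in untreated and between 18.33 and 18.98 in treated RNA. None of the 8 was near background, with mean untreated log2 signals between 13.72 and 16.72, whereas MYH11, ACTG2 and TAGLN had no matched probe. The part of these genes in the AKT1 values was not tested.

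**Figure D2:**
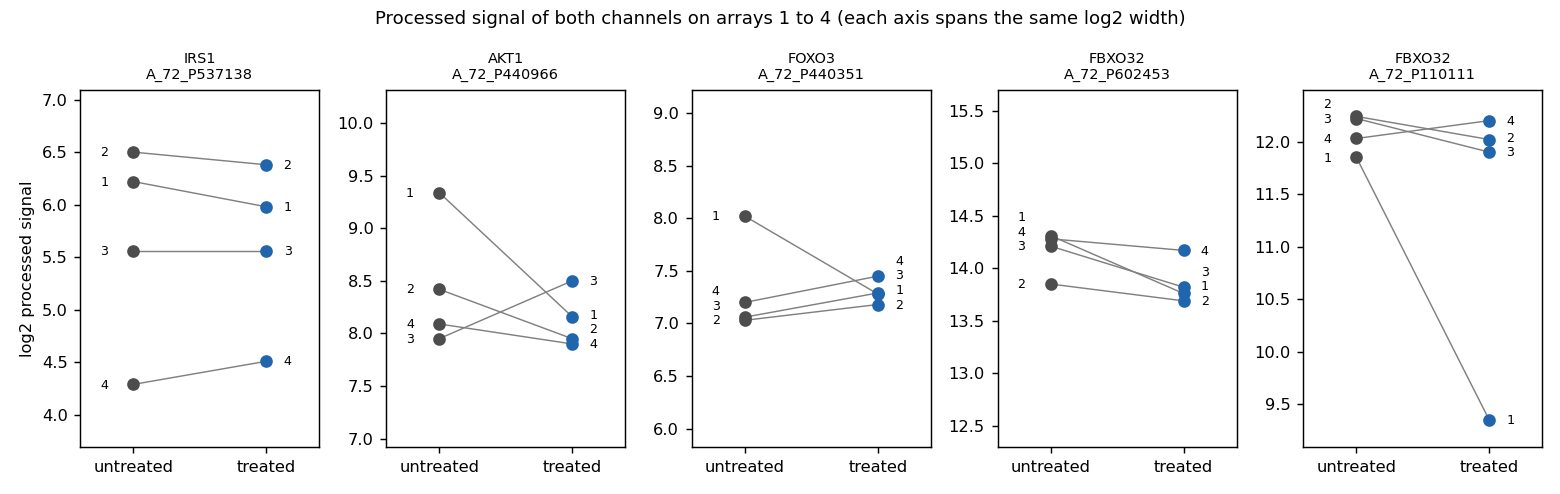
Processed signal (y axis, log2) of the 5 tested probes in untreated and treated RNA (x axis), with a line per array numbered 1 to 4; every panel spans the same log2 width. For AKT1 and FOXO3 the untreated signal of array 1 stands above the other 3 arrays, and for the second FBXO32 probe the treated signal of array 1 lies far below them.

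FOXO3, a forkhead factor that AKT restrains, was well above background in both conditions on all 4 arrays by probe A_72_P440351. Its processed signal was 259, 131, 133 and 147 in untreated RNA and 156, 145, 157 and 175 in treated RNA. As for AKT1, the untreated signal of array 1 was the high value, 1.89-fold the mean of the other arrays, while the 4 treated signals spanned 0.28 on the log2 scale. The log2 ratios were -0.73, 0.15, 0.24 and 0.25, with spot errors of 0.23 or 0.24. Array 1 was thus the only array below 0, and the other 3 agreed within their errors at a mean of 0.21 ± 0.06 (SD, n = 3 arrays).

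Over all 4 arrays the mean of FOXO3 was -0.02, with a moderated SE of 0.19 and an interval from -0.50 to 0.46. It was 0.22 without array 1 and -0.27 without array 3, and 0.04 with loess. With normexp (offset 50) and loess applied together, the array 1 ratio of FOXO3 was -0.29 in place of -0.73. That of AKT1 was -0.74 in place of -1.18. The part of each step in these differences was not tested. Without array 1 the fitted mean of FOXO3 was above 0, as was the plain mean of arrays 2 to 4, whereas for AKT1 the fit gave 0.11 and the plain mean of arrays 2 to 4 was -0.03 ± 0.52 (SD, n = 3 arrays).

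FBXO32 encodes the F-box subunit that selects substrates for an SCF ubiquitin ligase. Its brighter probe, A_72_P602453, had processed signals of 20292, 14773, 18909 and 19942 in untreated RNA and 13864, 13252, 14418 and 18479 in treated RNA. The treated signal was the lower of the pair on each array, although the ranges of the conditions overlapped. The log2 ratios were -0.55, -0.16, -0.39 and -0.11, with spot errors of 0.20 or 0.21. Arrays 1 and 3 lay more than 1 spot error below 0 and arrays 2 and 4 did not. The mean was -0.30 with a moderated SE of 0.13 and an interval from -0.63 to 0.02, so untreated RNA was 1.23-fold the treated.

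As the value of 1 probe this moved little between settings, from -0.26 without array 1 to -0.34 without array 3, and was -0.33 with loess. Of the 5 tested probes of these genes, this 1 was below 0 on all 4 arrays, as were 6.22% of all tested probes. Above 0 on all 4 arrays were 0 of the 5, against 6.36% of all tested probes. The dye coefficient of A_72_P602453 was -0.17, and its ratios were lower on the 2 arrays that held treated RNA in Cy5.

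The second FBXO32 probe, A_72_P110111, had untreated signals of 3685, 4843, 4787 and 4169. In treated RNA it had 653 on array 1 and then 4155, 3815 and 4689. The low treated signal of array 1 was the only value apart from the rest, with the mean of the other arrays 6.44-fold higher. The log2 ratios were -2.50, -0.22, -0.33 and 0.17, so array 1 lay 2.17 below the next value, with a spot error of 0.31. Only 0.113% of the tested probes lay at or below -2.50 on array 1.

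The mean of this probe was -0.72 over 4 arrays, with a moderated SE of 0.35 and an interval from -1.59 to 0.15. It was -0.18 in the fit without array 1, and -1.26 without array 3. The plain mean of arrays 2 to 4 was -0.13 for this probe and -0.22 for the brighter one. Over all 4 arrays, a mean of both probes gave FBXO32 -0.51, in which the array 1 spot of the second probe is included.

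Both FBXO32 probes carry the same accession, and both were measured on the same arrays. They differed by 1.95 on the log2 scale on array 1, against 0.06, 0.06 and 0.28 on arrays 2, 3 and 4. Among the 510 genes with exactly 2 tested probes, the median difference between probes was 0.20 on array 1, and 0 genes differed by more than FBXO32 there. On arrays 2, 3 and 4, 420, 403 and 238 of these genes differed by more. With loess the difference on array 1 was -1.52, with the second probe again the lower.

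The scanner software had marked the local background of that array 1 spot as an outlier in at least 1 channel. Its Cy5 local background was 55, against values between 31 and 39 for the same probe on the other arrays, and the spot itself was not marked. Background marks fell on 11.7% of the probe spots of array 1. Over tested probes, the SD of the log2 ratio on array 1 was 0.62 for marked and 0.47 for unmarked spots. The array 4 spot of the probe was also marked, and the 2 unmarked arrays gave a mean log2 ratio of -0.27. The part of the marked background in the value of -2.50 was not tested.

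**Figure D3:**
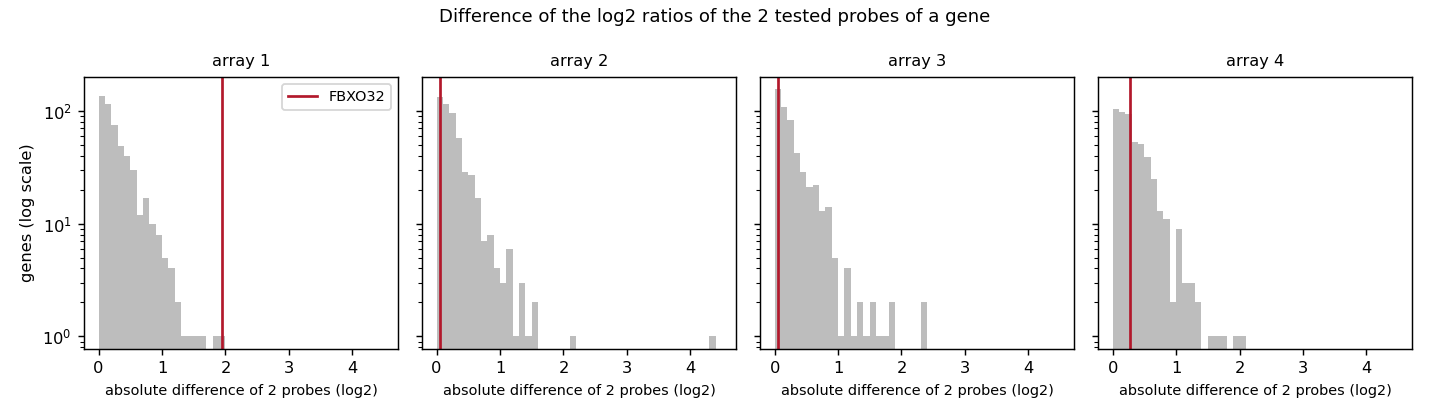
Absolute difference of the log2 ratios of the 2 tested probes of a gene (x axis) on each array, over 510 genes (y axis: number of genes on a log scale); the red line is FBXO32. FBXO32 stands at 1.95 on array 1, with no gene beyond it, and at 0.06, 0.06 and 0.28 on arrays 2, 3 and 4.

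Genes around these 4 in the pathway gave no call either. The 5 lists held 205 genes besides the 6 above, of which 73 had a matched probe and 61 a tested one. Of the 61, 0 passed in either direction, 32 lay above 0 and 29 below, and the median was 0.00. Over all 2134 named genes tested the median was -0.02, with 974 above and 1160 below 0. A list median near that of all genes is thus the common picture here.

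Upstream of AKT, 5 of 23 insulin receptor signalling genes were tested, with a median of -0.03, 1 above and 4 below 0 and 0 past the test. IGF1R, the receptor of insulin-like growth factors, was below 0 on all 4 arrays at -0.22, -0.36, -0.26 and -0.01, with a mean of -0.21 ± 0.14 (SE). SLC2A4, the insulin-regulated glucose transporter, ranged by its brighter probe from -0.75 on array 3 to 0.86 on array 1. It is named here after its values were seen. The ratios of its 2 tested probes differed by 1.28 on array 1 and by 1.18 on array 3, with means of -0.03 and 0.02, so the range is that of 1 probe.

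Around AKT, 10 of 50 PI3K, AKT and mTOR genes were tested, with a median of 0.03, 6 above and 4 below 0 and 0 past the test. PPP2R1A and PPP2CA, the scaffold and catalytic subunits of protein phosphatase 2A, which removes activating phosphates from AKT, were the 2 genes with 1 sign on all 4 arrays. PPP2R1A was at -0.93, -0.92, -0.05 and -0.05, with a mean of -0.49 ± 0.23 (SE). That mean became -0.27 without array 1 or array 2, and -0.71 without array 3 or array 4. PPP2CA was at -0.15 ± 0.13 (SE), and at -0.03 with loess. The AKT substrate GSK3B was at 0.00.

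DDIT4, an mTOR inhibitor induced by stress and low oxygen, had the widest spread of the PI3K, AKT and mTOR list, and is named after its values were seen. It stood at 1.15, 1.01, -2.35 and 0.20 on arrays 1 to 4, with a mean of 0.00 that became -0.87 without array 1 and 0.88 without array 3. The mean therefore says little about this gene. These are the values of its brightest probe, and the 4 tested DDIT4 probes had means from -0.14 to 0.01.

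Downstream, 20 of 60 FOXO regulators and targets were tested, with a median of 0.00, 11 above and 9 below 0 and 0 past the test. KLF6, a zinc finger factor, was the 1 gene of the list with the same sign on all arrays, at 0.88, 1.00, 0.14 and 0.51, with a mean of 0.63 ± 0.18 (SE). Its 4 tested probes ran from 0.11 to 0.63. PDK4, the kinase that shuts off pyruvate oxidation and a known FOXO target, was at 1.54, -0.31, -1.40 and -0.38, with a mean of -0.14 that was -0.87 without array 1 and 0.60 without array 3. PDK4 was likewise named after its values were seen, and these are the values of its brightest probe. The 8 tested PDK4 probes had means from -0.39 to 0.00. TXNIP, an inhibitor of thioredoxin, was at 0.42, with array 1 at -0.29 and the other arrays between 0.55 and 0.73. The cell cycle inhibitor CDKN1B was at 0.06 and the antioxidant enzyme CAT at -0.07.

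Beside FBXO32, 15 of 54 muscle ubiquitin ligase and atrogene genes were tested, with a median of -0.04, 7 above and 8 below 0 and 0 past the test; the median was 0.03 with loess. ZFAND5, a ubiquitin-binding protein raised in muscle wasting, was below 0 on all 4 arrays at -0.26, -0.27, -0.49 and -0.50, with a mean of -0.38 ± 0.14 (SE). Its 15 tested probes ran from -0.39 to -0.14. FBXO21 was at -0.22 ± 0.13 (SE), though its 3 tested probes ran from -0.22 to 0.05. On the other side TRAF6, a ubiquitin ligase of inflammatory signalling, was above 0 on all 4 arrays, with a mean of 0.26 ± 0.13 (SE). The metal-binding protein MT1A, named after its values were seen, was at 0.48, 1.12, -2.08 and -2.10, and its mean of -0.65 became -1.29, -1.45, -0.01 and 0.16 without arrays 1, 2, 3 and 4.

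Between adiponectin receptors and this pathway, 11 of 18 linking genes were tested, with a median of 0.08, 7 above and 4 below 0 and 0 past the test. CPT1A, the gate of fatty acid entry into mitochondria, was at 0.61 ± 0.16 (SE) and PRKAB2, a regulatory subunit of the energy sensor AMPK, at 0.42 ± 0.16 (SE), both above 0 on all 4 arrays. The 2 tested CPT1A probes ran from 0.28 to 0.61. APPL1, the adaptor that binds adiponectin receptors and AKT, was at 0.17 ± 0.14 (SE) and likewise above 0 on each array. Without array 4 the list median was -0.03.

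**Figure D4:**
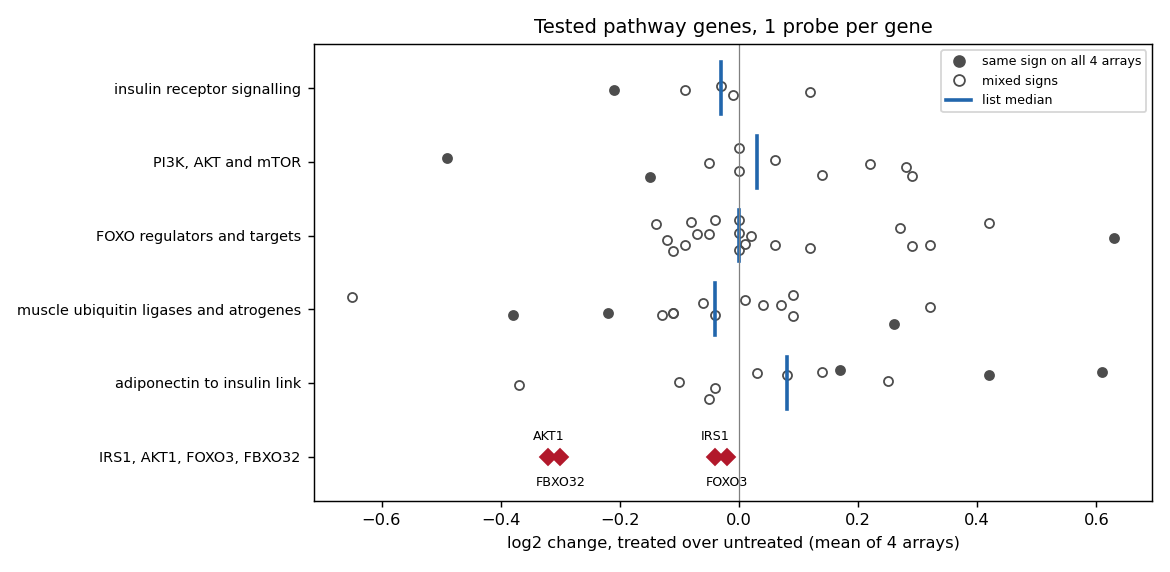
Log2 change of each tested pathway gene, treated over untreated (x axis, mean of 4 arrays, 1 probe per gene), by list (y axis), with IRS1, AKT1, FOXO3 and FBXO32 in the lowest row as diamonds. Filled circles have 1 sign on all 4 arrays and blue bars are list medians, which lie between -0.04 and 0.08.

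The genes most like each of the 4 were taken as those with the smallest root mean square difference of the 4 array ratios, out of 2133 named genes. For FBXO32 these were CYP2B22, a cytochrome P450, at a difference of 0.05, and HMGA1, a chromatin protein, at 0.08, though the 3 tested HMGA1 probes had means from -0.34 to 0.03. For FOXO3 they were CTNNB1, the beta-catenin gene, at 0.02 and the ribonuclease RNASE4 at 0.07. CTNNB1 stood at -0.74, 0.12, 0.23 and 0.28, though its 5 tested probes had means from -0.21 to 0.08. For AKT1 they were C1QTNF2, of the same protein family as adiponectin, at 0.13, with ratios of -1.10, -0.62, 0.52 and -0.39, and PDZK1IP1 at 0.15. For IRS1 they were COPS6 at 0.06 and GHITM at 0.07, though the 9 tested GHITM probes had means from -0.63 to -0.02. Both differences are smaller than the single-spot errors of the IRS1 ratios, which ran from 0.26 to 0.76. Likeness over 4 arrays is a description of these arrays alone.

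Of the markers of other cell types, 0 passed the test. The 10 tested macrophage and monocyte genes had a median log2 ratio of 0.48, -0.26, 2.16 and 0.63 on arrays 1 to 4, all 10 had a mean above 0 and the list median was 0.70. Their median was highest on array 3, as the AKT1 ratio was, though CD14 was highest on array 4 at 0.46. The 6 tested endometrial epithelium genes stood at 0.13, 1.02, -0.63 and 0.84, with a list median of 0.28. They did not move together: on array 1 they ran from -1.11 for CDH1 to 2.09 for MUC4. Their means ran from -0.17 for CLDN4 to 1.35 for MUC4. The list medians of the endothelium, stroma and adipocyte genes were 0.14, -0.13 and -0.20. Of the 17 listed skeletal and cardiac muscle genes, from tissues where FBXO32 is best known, 7 were tested. Their medians stood at -0.71, -0.02, 0.11 and -0.28. The striated myosin genes MYH1, MYH2, MYH4 and MYH7 had a matched probe but were not tested. On array 1 the tested genes differed, with ACTA1 at -1.22 and MYOG at 0.56. ACTA1, at -1.22, 0.10, 1.21 and -0.28, was like the smooth muscle gene ACTA2 in being lowest on array 1 and highest on array 3. ADIPOQ, the gene of adiponectin itself and the defining adipocyte marker, had a matched probe but did not meet the conditions for testing. The part of these cell types in the values above was not tested.

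**Figure D5:**
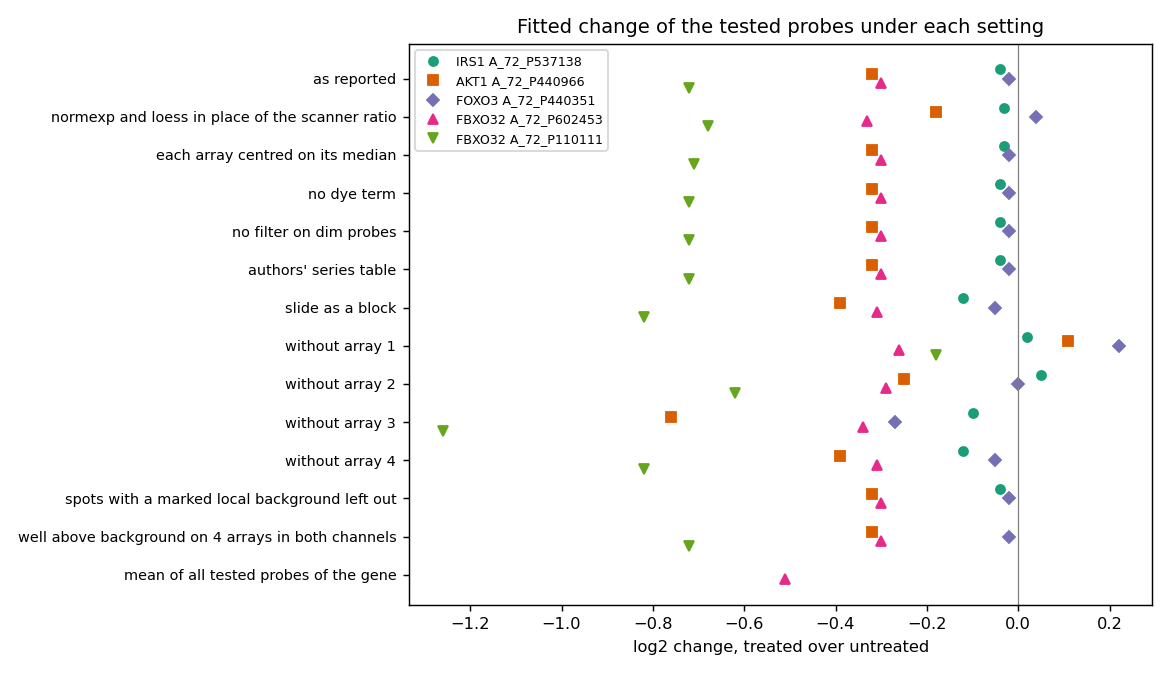
Fitted log2 change of the 5 tested probes (x axis) under each setting (y axis), with 1 symbol per probe. The point at -0.51 is the mean of both FBXO32 probes and not a fit of 1 probe, though it carries the symbol of A_72_P602453. FBXO32 probe A_72_P602453 keeps between -0.26 and -0.34 in the fits, whereas AKT1 runs from -0.76 to 0.11 and FBXO32 probe A_72_P110111 from -1.26 to -0.18.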

How the data were processed

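The deposited scanner files hold spot intensity per dye and a log10 ratio of Cy5 over Cy3, background-subtracted and dye-normalised by Agilent Feature Extraction 10.7.3.1, per the file headers. Ratios were put on the log2 scale and turned to treated over untreated by the labels' dye fields; the labelling protocol text names 1 dye per condition and no swap, but the signs of the series table follow the dye fields. The authors' series table holds log2 ratios; against the scanner ratios its slopes were 1.00, -1.00, 1.00 and -1.00, so it is treated over untreated, uncentred (column medians -0.10, 0.13, -0.14 and 0.16). How its dim probes were made is not given in the sources used here. In Cy3, 46.1% to 51.0% of probe spots were well above background, in Cy5 54.9% to 63.1%, and 0 were saturated. The number of arrays limits the precision.

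Control spots and spots whose own signal was marked as an outlier were left out and spots of a probe averaged. Spots with only a marked local background were kept, except in the alternative that left them out. Tested probes stood well above background in 1 condition on 3 or more of the 4 arrays and had a value on each (22129 of 43603; 159 bright ones were dropped for a marked spot). Of 7125 RefSeq accession probes, 6700 matched 3029 symbols of Sscrofa11.1, used for names only, and the brightest probe stood for a gene. limma 3.58.1 in R 4.3.3 fitted the treatment with a dye term for each probe (two-sided) with Benjamini-Hochberg adjustment at 0.05; the fit was tested on simulated data. Arrays 1 to 3 shared a slide and array 4 was on another.

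The members and lists were chosen with earlier results of these data known. Named are all member probes, per list up to 2 genes per direction with the largest change among those of 1 sign on all arrays, the 2 genes nearest each member, and genes said to be named after their values were seen; other list genes are named for their role. Alternatives were normexp (offset 50) with loess, median centring, no dye term, other dimness filters, the series table, slide as a block, each array left out, all probes of a gene averaged and, chosen after seeing the data, spots with a marked background left out.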

Additional observations from a re-analysis of the deposited data

Results flagged for a closer look

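Among 40 sets of 4 array values, 5 had an array that stood far apart, where independent sets would give about 2.00 by chance. The sets are not independent, because they include genes picked for their likeness to a member. The 2 counts therefore cannot show an excess. FOXO3 probe A_72_P440351 had a log2 ratio of -0.73 on array 1, against 0.15 to 0.25 elsewhere. FBXO32 probe A_72_P110111 had a log2 treated signal of 9.35 on array 1, against 11.90 to 12.20 elsewhere. CTNNB1 at -0.74 and RNASE4 at -0.67 on array 1 were named for their likeness to FOXO3, so they are not separate findings. The median of the insulin receptor signalling list, over 5 genes, was -0.23 on array 2, against -0.02 to 0.01 elsewhere.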

How the results depend on the processing

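No probe of these genes passed under any alternative. Over all probes the counts called stayed at 0 except without array 3, with 12 higher; leaving out an array gave 0 to 12 higher and 0 lower. At an unadjusted p under 0.05 the counts were 1644 higher and 1518 lower with no filter on dim probes, and 429 and 265 with slide as a block, which equals the value within slide 1, since array 4 is alone on its slide. They ran from 429 to 1303 higher and from 265 to 1090 lower when an array was left out. The mean of both FBXO32 probes was -0.51 in place of -0.30. The muscle ubiquitin ligase and atrogene median was 0.03 with loess and -0.04 to 0.04 with an array left out; the cause was not tested. With 3 arrays, the array alone in its dye orientation weighs as much as the others together, so each omission also adds weight to 1 array. Left out this way, IRS1 probe A_72_P537138 ran from -0.12 to 0.05, AKT1 from -0.76 to 0.11, FOXO3 from -0.27 to 0.22, and the FBXO32 probes from -0.34 to -0.26 and from -1.26 to -0.18. With marked backgrounds left out, FBXO32 probe A_72_P110111 had 2 arrays and could not be fitted, and with the strict filter IRS1 was not tested. No paired analysis was possible because the labels tie no array to a gilt; each ratio already compares both conditions on 1 array.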
